A study of Mus musculus with 7 samples.

Results

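The genes described here encode the general splicing machinery: SR proteins, heterogeneous nuclear ribonucleoproteins (hnRNPs) and proteins of the core spliceosome. They are the 65 of 23847 rows whose symbol begins with Srsf and a digit (11 genes), Hnrnp (18), U2af (3), Sf3a or Sf3b and a digit (8), Prpf and a digit (13) or Snrp (12), and no symbol among them was repeated. RNA came from ventricular lysate of male mice with a labelled age of 12 weeks, operated on at the age of 8 weeks. In the 3 libraries named TAB the aorta was constricted with a suture (trans-aortic banding), which raises the pressure against which the left ventricle pumps. In the 4 libraries named Sham the aorta was exposed and the suture was not ligated. The labels give no strain, genotype or transgene. Nor do they tie each library to its own animal, and the p-values therefore cover library-to-library spread, which may be technical.

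Splicing removes introns from pre-mRNA. SR proteins bind exons through RNA recognition motifs and recruit splicing factors through a domain rich in arginine and serine, and hnRNPs often oppose them at the same transcripts. The U1 small nuclear ribonucleoprotein (snRNP) recognises the 5′ splice site, U2AF marks the 3′ splice site, and the U2 snRNP with its SF3A and SF3B proteins binds the branch point. The U4, U6 and U5 snRNPs then join, and the U5 protein PRPF8 lies at the catalytic centre. Heart muscle depends on regulated splicing of sarcomere and ion channel transcripts, and the title of the series concerns alternative splicing of a kinase transcript in heart failure. Whether the genes of the machinery changed in level under banding is the comparison made here.

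Expression values are FPKM, fragments per kilobase of transcript and per M mapped fragments, M standing for mega. A total of 64 of the 65 genes passed the filter on low values (1 FPKM or more in 3 or more of the libraries). The exception was Srsf12, an SR protein gene listed at 0 in 4 libraries and at 0.0283 to 0.0303 FPKM in the other 3. The smallest steps of low values implied depths of 10.8 to 12.2 M fragments per library, at which 1 FPKM on a transcript of 2 kb stands for 21.6 to 24.4 fragments. The load marker Acta1, a fetal actin gene, was at 118 to 168 FPKM in Sham and 2110 to 2951 in TAB, and all 7 load markers rose. Ventricular cardiomyocyte markers summed to 54706 to 58418 FPKM in Sham and 51252 to 57291 in TAB. Fibroblast markers summed to 433 to 493 in Sham and 546 to 704 in TAB, and macrophage markers to 247 to 275 and 274 to 339, which overlapped. Endothelial markers summed to 216 to 246 in Sham and 260 to 290 in TAB, and smooth muscle and pericyte markers to 228 to 236 and 254 to 290, both without overlap. Atrial markers summed to 282 in Sham 2 and 302 in TAB 3, against 31.9 to 133 in the other libraries. No lymphocyte marker exceeded 1.47 FPKM. In bulk tissue, fewer cells of a type and less RNA per cell cannot be told apart.

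Most splicing factor genes differed little in level between TAB and Sham ventricles. Of the 64 tested genes 0 rose and 2 fell, Snrpn and Prpf8, and 62 did not pass the test (limma on log2(FPKM + 1), adjusted p under 0.05). That is 3.12% of the genes, beside 20.3% of all 11601 tested rows, of which 13.3% were called higher and 7.05% lower. That split of 1542 higher and 818 lower depended on the scaling, with 1126 and 1190 under median-of-ratios rescaling and 1045 and 1225 under quantile normalization. Among rows with a mean FPKM of at least 5, which all but 2 of the 65 genes reach, 25.1% were called in a fit of their own, and 2 of the 63 genes. At an unadjusted p under 0.05 the share was 7.81% of the 64 genes and 33.8% of all tested rows. For 7 of the 64 genes (10.9%) the ranges of both groups were apart, beside 31.1% of all tested rows. TAB was higher in 2 of them and lower in 5, where 19.9% and 11.2% of all tested rows had TAB higher and lower.

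The differences were small as well as rarely called. The median absolute log2 fold change was 0.042 for the 64 genes and 0.115 for all tested rows, and the signed medians were 0.005 and 0.045. Values lay between -0.32 and 0.26. The median standard error was 0.064 for these genes and 0.076 for all tested rows. The 95% interval of the fold change lay within 1.25-fold in either direction for 60 of the 64 genes (93.8%), beside 57.8% of all tested rows. The 4 exceptions were Snrpn, Snrpa1, Srsf9 and Sf3b4.

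**Figure D1:**
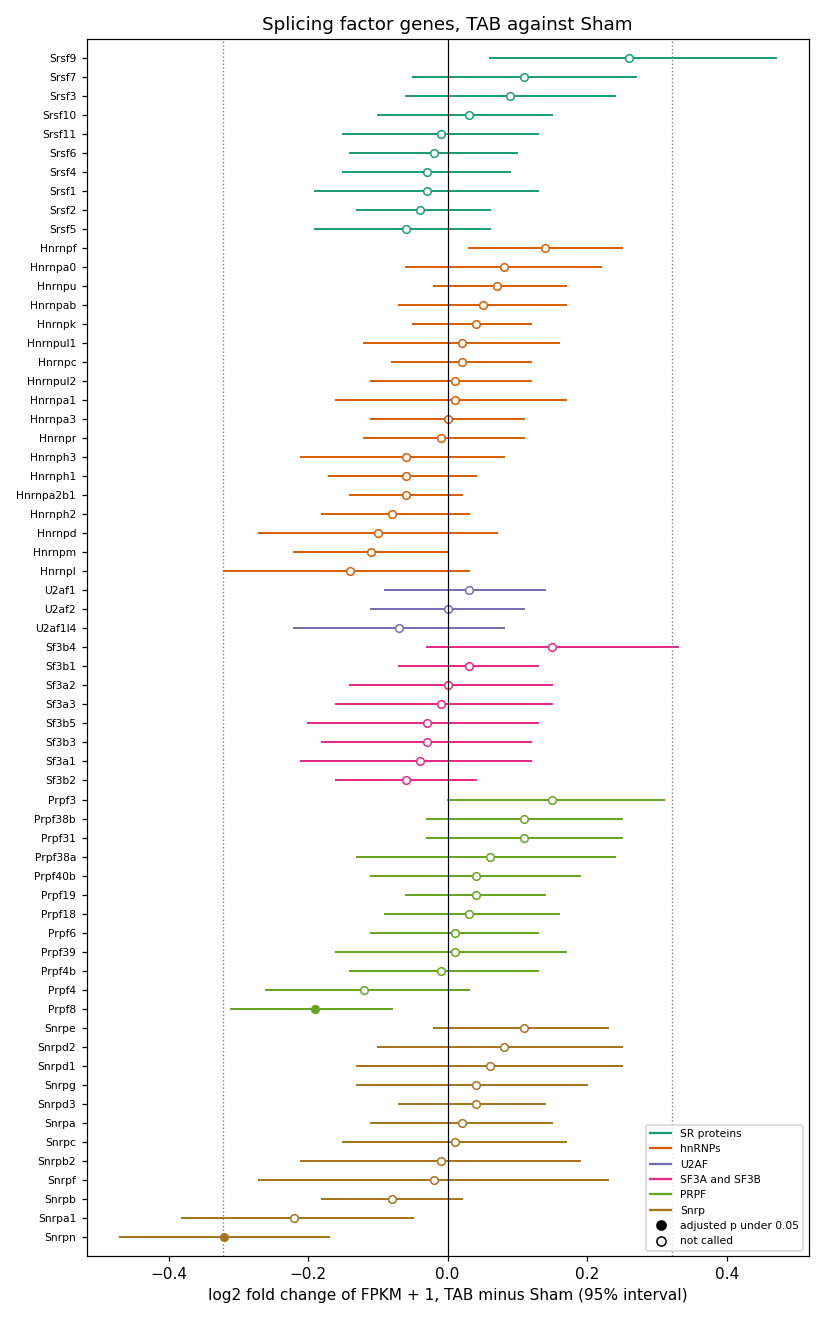
Log2 fold change of FPKM + 1 (TAB minus Sham, x axis) with its 95% interval for 63 of the tested genes, coloured by subfamily; filled points mark adjusted p under 0.05 and dotted lines a 1.25-fold difference. Only Snrpn and Prpf8 are filled, and the intervals of Snrpn, Snrpa1, Srsf9 and Sf3b4 alone cross a dotted line.

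**Figure D2:**
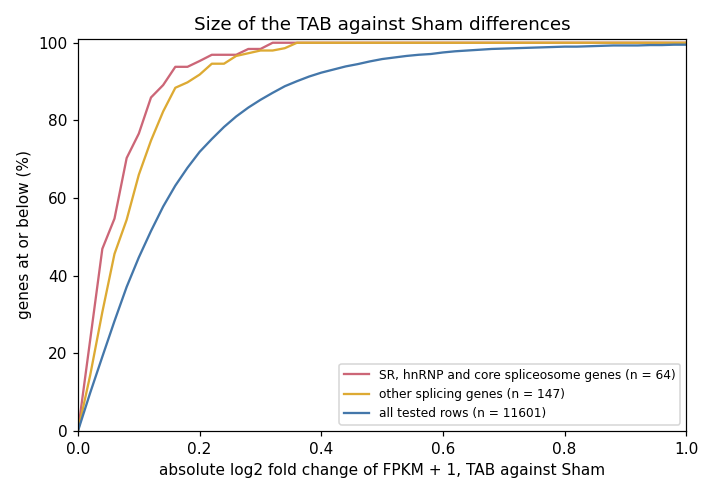
Share of genes (y axis, %) whose absolute log2 fold change is at or below the value on the x axis, for the 64 genes described, 147 other splicing genes and all 11601 tested rows. At 0.1 the share is 76.6% for the 64 genes, 66% for the other splicing genes and 44.7% for all rows.

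The start regions of the 2 genes that fell are shown because their difference is the one the comparison turns on. Each window runs from 250 bases before to 50 after a RefSeq transcript start (build GRCm38.p6, which is mm10), 5′ to 3′ on the gene's strand, plus for Prpf8 and minus for Snrpn. Capitals mark CCAAT or its reverse complement in Prpf8, and a palindrome of 10 letters in Snrpn. RefSeq lists 4 start windows for Snrpn. The first window shown is the one it shares with Snurf, and the second spans the upstream end of the deposited row.

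Prpf8 chr11:75486527-75486826: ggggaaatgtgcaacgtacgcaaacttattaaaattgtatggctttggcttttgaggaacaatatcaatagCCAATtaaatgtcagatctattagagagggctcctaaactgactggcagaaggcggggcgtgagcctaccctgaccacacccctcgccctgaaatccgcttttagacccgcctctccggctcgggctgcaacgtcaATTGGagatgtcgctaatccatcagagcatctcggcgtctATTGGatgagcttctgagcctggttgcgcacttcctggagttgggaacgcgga
Snrpn chr7:60005150-60005449: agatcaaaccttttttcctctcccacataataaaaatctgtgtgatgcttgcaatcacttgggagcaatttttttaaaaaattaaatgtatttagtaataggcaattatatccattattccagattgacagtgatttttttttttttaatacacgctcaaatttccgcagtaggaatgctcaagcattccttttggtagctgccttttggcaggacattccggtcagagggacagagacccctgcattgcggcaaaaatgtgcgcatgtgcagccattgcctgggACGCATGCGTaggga
Snrpn chr7:60140176-60140475: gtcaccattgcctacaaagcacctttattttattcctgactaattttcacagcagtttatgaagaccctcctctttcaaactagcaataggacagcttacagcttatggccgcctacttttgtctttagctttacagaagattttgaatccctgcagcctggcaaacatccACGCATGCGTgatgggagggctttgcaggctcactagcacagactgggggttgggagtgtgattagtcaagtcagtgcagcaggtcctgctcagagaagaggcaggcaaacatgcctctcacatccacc

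CCAAT occurred 3 times in the Prpf8 window, and none of the other motifs named in this paragraph was found there. All were searched on both strands. The palindrome, chosen after reading these sequences, stood in all 4 Snrpn windows and in 2 windows of Hnrnph1. It was found in 26 of 11026 windows of tested genes (0.236%) and in 0.107% of all 32851 windows, counts that include the 6 windows just named. The Snrpn windows other than the one shared with Snurf matched each other at 49.5%, 60% and 71% of aligned bases. They are therefore not independent occurrences. Over 78 windows of the 57 genes with an entry, the ETS-type letters CCGGAAG were in 30.8% and the NRF1 motif in 21.8%, where windows of tested genes held them in 17.3% and 9.93% and all windows in 8.86% and 4.60%. The GC box letters GGGCGG stood in 62.8% and 62.9% of the windows of these and of tested genes, CCAAT in 48.7% and 37.3%, and the TATA box letters TATAAA in 8.97% and 7.27%. By subfamily, CCGGAAG stood in 6 of 7 SF3A and SF3B windows, 6 of 14 SR, 4 of 14 PRPF and 4 of 14 Snrp windows. It stood in 4 of 26 hnRNP windows (15.4%, below the share of tested genes) and 0 of 3 U2AF windows. The median number of CG dinucleotides per window was 25 in the 57 genes and 20 in tested genes, while the windows of Snrpn had 2 to 7.

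Snrpn encodes SmN, a relative of the Sm core protein SmB that is found mainly in brain and heart and is expressed from the paternal allele. Its row spans chr7:59982502-60140219. The 4 Sham libraries were at 35.5, 37.5, 37.9 and 37.2 FPKM, the 3 TAB libraries at 29.7, 32.9 and 26.3. Every TAB library was below every Sham library, with TAB 3 lowest. The mean went from 37.0 ± 1.07 (SD, n = 4) to 29.7 ± 3.30 (SD, n = 3), a log2 fold change of -0.32 ± 0.07 (SE, limma adjusted p = 0.00865). The gene was called under 14 of 15 alternatives, with limma adjusted p from 0.00235 to 0.0323 when any single library was left out. The call was lost when both Sham 2 and TAB 3, which had the most atrial marker RNA, were left out (log2 fold change -0.23, limma adjusted p = 0.0587). That fit called 11.9% of all tested rows, beside 20.3% with all libraries. The part of atrial RNA in this was not tested.

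Snurf, a short reading frame carried on the same transcripts as Snrpn, has a row of its own that overlaps it. It was at 2.07, 2.23, 2.30 and 2.20 FPKM in Sham and 1.80, 1.98 and 1.54 in TAB, again without overlap, and did not pass the test (log2 fold change -0.21, limma adjusted p = 0.104). Both rows can draw on the same fragments, and 21.2% of the distinct stretches of 50 bases in the longest coding Snrpn transcript also occur in transcripts of other GENCODE genes, Snurf among them. The order of the TAB libraries was the same for Snurf and Snrpn, with TAB 3 lowest and TAB 2 highest. The sum of ventricular cardiomyocyte markers was 51252, 57291 and 51932 FPKM in the TAB libraries, and 5 of those 8 markers fell and 1 rose; its part in the Snrpn result was not tested.

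Snrpb, which encodes the paralog SmB, was at 75.4, 75.3, 70.2 and 78.3 FPKM in Sham and 70.5, 69.7 and 71.3 in TAB. These groups overlapped, through Sham 3, and the gene did not pass the test (log2 fold change -0.08, interval -0.18 to 0.02, limma adjusted p = 0.232). Snrpn made up 33.15% ± 1.405 (SD, n = 4) of the summed Snrpn and Snrpb FPKM in Sham. In TAB this share was 29.6% ± 2.56 (SD, n = 3). The share ranged from 32.0% to 35.1% in Sham and from 26.95% to 32.1% in TAB, so the groups overlapped, TAB 2 (32.1%) lying just above the lowest Sham library.

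Prpf8, the largest protein of the U5 snRNP, spans chr11:75486777-75509447 and overlaps no other row. Sham libraries were at 27.7, 27.5, 29.9 and 29.8 FPKM, TAB libraries at 25.5, 24.2 and 25.3. No library of one group reached the other, and the gap between the groups was 27.5 to 25.5. The mean fell from 28.7 ± 1.27 (SD, n = 4) to 25.0 ± 0.718 (SD, n = 3), a log2 fold change of -0.19 ± 0.05 (SE, limma adjusted p = 0.0238). Leaving out Sham 3, Sham 4 or any TAB library ended the call (log2 fold changes between -0.21 and -0.17, with limma adjusted p between 0.0549 and 0.0704), as did leaving out both Sham 2 and TAB 3 (log2 fold change -0.22, limma adjusted p = 0.0629). No stretch of 50 bases of its longest coding transcript was found in another GENCODE gene.

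**Figure D3:**
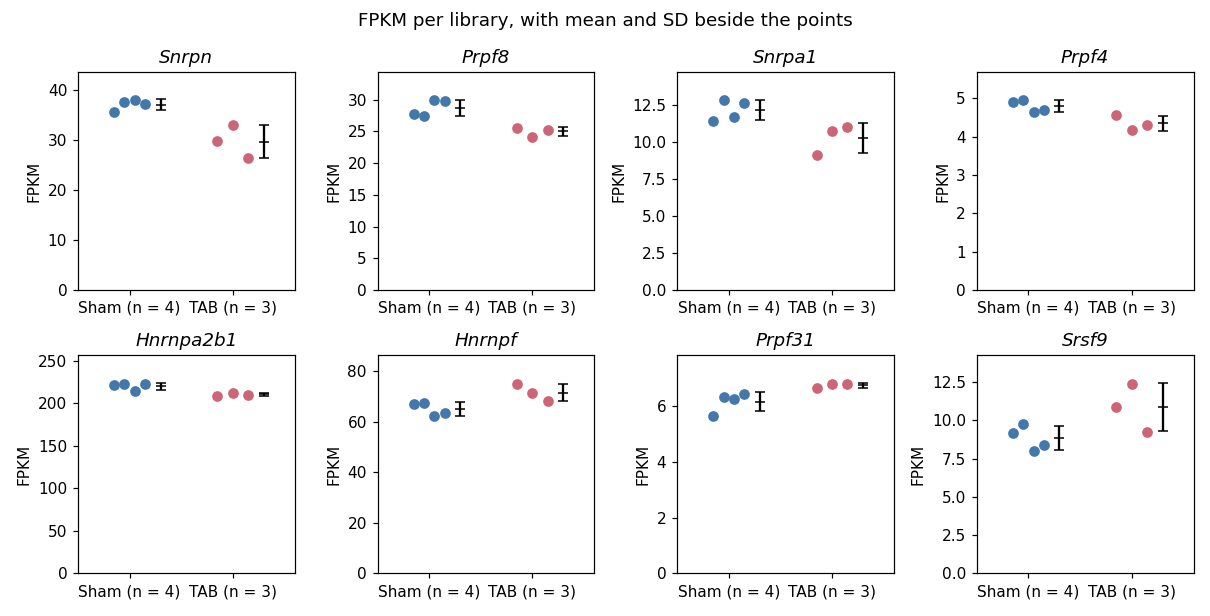
FPKM in each of the 4 Sham and 3 TAB libraries (points) with mean and SD beside them, for the 7 genes whose groups do not overlap and for Srsf9. In Snrpn, Prpf8, Snrpa1, Prpf4 and Hnrnpa2b1 every TAB point is below every Sham point, in Hnrnpf and Prpf31 above, and in Srsf9 only TAB 3 lies within the Sham range.

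None of the SR protein genes was called, with 0 of 10 tested, beside 20.3% of all tested rows. The median log2 fold change of these genes was -0.013. Their summed FPKM was 347 to 364 in Sham and 340 to 363 in TAB. Srsf5, the most abundant, was at 120, 115, 132 and 113 FPKM in Sham and 116, 118 and 110 in TAB, which overlapped. Srsf2, a sequence-specific exon activator, and Srsf3, the smallest SR protein, came next at 50.6 ± 1.36 and 40.0 ± 3.49 (SD, n = 4, Sham) and 49.3 ± 1.67 and 42.5 ± 1.40 (SD, n = 3, TAB). Srsf1, the founding family member, was at 25.8 ± 2.06 and 25.2 ± 1.99, and its interval reached from -0.19 to 0.13. Srsf6, which was above Srsf1, and Srsf7, Srsf10, Srsf11 and Srsf4 had Sham means of 32.5 down to 14.9 FPKM and log2 fold changes from -0.03 to 0.11. Srsf10, whose product acts as a repressor when dephosphorylated, was at 20.6 ± 1.22 and 20.97 ± 0.464.

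Srsf9 had the highest fold change of the 64 genes without passing the test. It was at 9.15, 9.77, 8.01 and 8.36 FPKM in Sham and 10.9, 12.4 and 9.27 in TAB. TAB 1 and TAB 2 were above every Sham library and TAB 3 was not. The log2 fold change was 0.26 ± 0.09 (SE, interval 0.06 to 0.47, limma adjusted p = 0.0717). It passed without TAB 3 (0.36, limma adjusted p = 0.0250) and without both Sham 2 and TAB 3 (0.41, limma adjusted p = 0.0213). Without TAB 2 the value was 0.17 (limma adjusted p = 0.235).

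The hnRNP genes were the most abundant of the machinery, with a summed FPKM of 915 to 947 in Sham and 916 to 932 in TAB. In this subfamily 0 of 18 were called, beside 20.3% of all tested rows. Hnrnpa2b1, which encodes the A2 and B1 proteins that bind exonic silencers and RNA in transport, was at 221, 222, 214 and 223 FPKM in Sham and 209, 212 and 210 in TAB. The groups did not overlap, yet the difference of -0.06 (interval -0.14 to 0.02) did not pass the test (limma adjusted p = 0.252). Hnrnpk, a poly(C)-binding protein gene, was second at 117 ± 2.18 (SD, n = 4) and 120.0 ± 2.12 (SD, n = 3). Hnrnph1, Hnrnpf, Hnrnpc and Hnrnpu followed at 67.1 ± 2.32, 65.1 ± 2.63, 58.9 ± 1.92 and 58.5 ± 1.79 FPKM in Sham. Within the first and within the last pair of these the means differed by less than the SD, and Hnrnpf and Hnrnpc differed by more.

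Hnrnpf, whose product binds G-rich RNA, had the highest fold change among the hnRNPs. It was at 67.1, 67.6, 62.3 and 63.5 FPKM in Sham and 75.2, 71.5 and 68.3 in TAB. TAB was above Sham in every library, and the log2 fold change of 0.14 ± 0.05 (SE) did not pass the test (limma adjusted p = 0.0763). Its relatives Hnrnph1, Hnrnph2 and Hnrnph3 had values of -0.06, -0.08 and -0.06. Of the distinct 50-base stretches of Hnrnpf 49.0% also occur in other genes, the predicted genes Gm6430, Gm7446 and Gm12435 among them, so its level is uncertain. The lowest values were those of Hnrnpl (-0.14, 50.5 ± 4.42 to 45.7 ± 4.54), Hnrnpm (-0.11, 44.3 ± 1.6 to 40.9 ± 2.12) and Hnrnpd (-0.10), which encodes AUF1, a regulator of mRNA decay and the least abundant at 7.12 ± 0.219 FPKM in Sham. Hnrnpa1, Hnrnpa3, Hnrnpr, Hnrnpul2, Hnrnpc and Hnrnpul1 lay between 0.00 and 0.02 in absolute value, and Hnrnpab, Hnrnpa0 and Hnrnpu between 0.05 and 0.08.

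**Figure D4:**
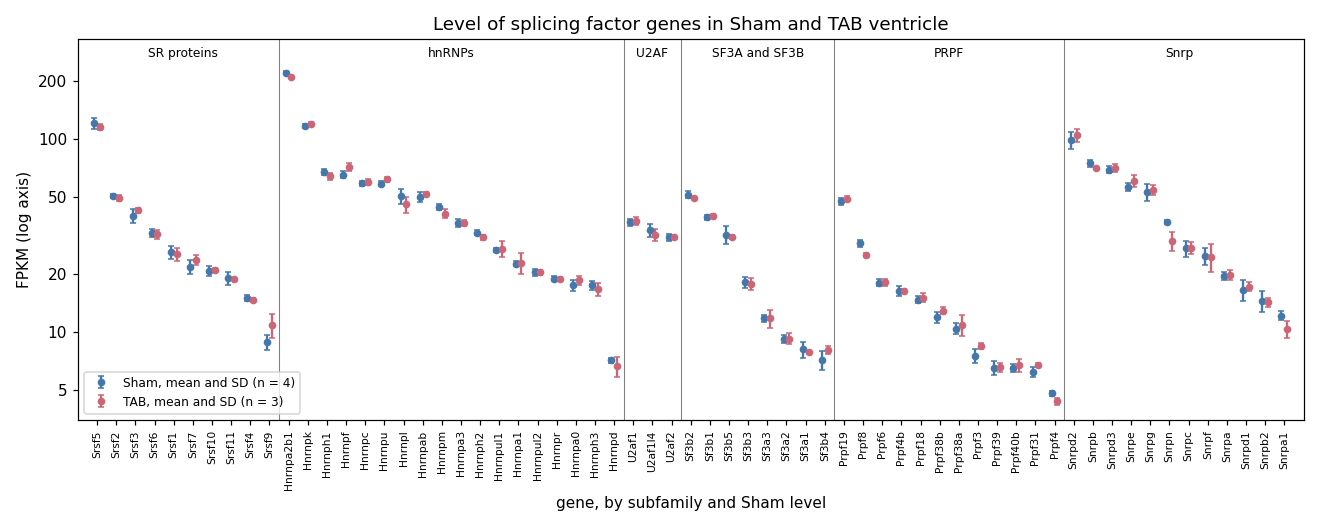
Mean FPKM (log axis) with SD of 63 tested genes in Sham (n = 4) and TAB (n = 3), grouped by subfamily and ordered by Sham level. Hnrnpa2b1 is highest at 219.9 and Prpf4 lowest at 4.802 in Sham.

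Genes that mark the 3′ splice site and branch point showed no call, with 0 of 3 U2AF and 0 of 8 SF3A and SF3B genes. Of all tested rows 20.3% were called, so sets of 3 and 8 genes can hold no call without departing from that share. U2af1, the small U2AF subunit that reads the AG at the intron end, was at 35.6, 35.7, 38.6 and 37.7 FPKM in Sham and 39.9, 36.4 and 36.7 in TAB. U2af2, the large subunit that binds the polypyrimidine tract, was at 30.9 ± 1.18 (SD, n = 4) and 30.8 ± 0.709 (SD, n = 3). U2af1l4, a paralog of U2af1, made up 47.6% ± 1.85 of the FPKM of the pair in Sham and 45.9% ± 2.96 in TAB. Of the distinct 50-base stretches of U2af1l4 97.2% also occur in transcripts of the GENCODE gene Gm49396, and 59.4% of those of U2af1 do in other genes, so both levels are uncertain. For U2af2 the share was 29.9%. Across the 65 genes 24 shared over 5% of these stretches with other genes, and 23 shared none. Among genes given above, Hnrnpk shared 34.5%, Srsf3 31.5%, Hnrnpm 28.8% and Srsf5 27.8%, so the same limit holds for their levels.

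Among the SF3 genes Sf3b2 was highest, at 48.9, 52.8, 50.4 and 53.3 FPKM in Sham and 49.4, 49.6 and 48.5 in TAB, which overlapped. Sf3b1, the scaffold of the branch point pocket, was at 39.3 ± 1.24 (SD, n = 4) and 40.0 ± 0.961 (SD, n = 3). The SF3A genes Sf3a1, Sf3a2 and Sf3a3 were at 8.09, 9.17 and 11.7 FPKM in Sham with log2 fold changes of -0.04, 0.00 and -0.01. Sf3b4, which encodes an RNA-binding subunit, had the widest departure at 0.15 (7.16 ± 0.793 to 8.03 ± 0.389, interval -0.03 to 0.33, limma adjusted p = 0.227). Of its distinct 50-base stretches 49.3% also occur in another gene, Gm7935, so its level is uncertain, as is that of Hnrnpa1 (46.4%). The summed FPKM of the 8 genes was 172 to 181 in Sham and 174 to 175 in TAB.

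Of the 13 PRPF genes 1 fell (Prpf8) and 0 rose (7.69% called, beside 20.3% of all tested rows). The other 12 had log2 fold changes from -0.12 to 0.15, 10 of them above 0. Prpf19, the ubiquitin ligase at the core of the Prp19 complex, was the most abundant at 46.8, 47.3, 45.8 and 50.2 FPKM in Sham and 47.5, 50.2 and 49.0 in TAB. Prpf3, a U4/U6 protein gene, was at 7.5 ± 0.655 (SD, n = 4) and 8.44 ± 0.281 (SD, n = 3), with a log2 fold change of 0.15 (limma adjusted p = 0.159).

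Prpf31 was at 5.66, 6.35, 6.25 and 6.43 FPKM in Sham and 6.65, 6.82 and 6.81 in TAB, higher in all TAB libraries (0.11, limma adjusted p = 0.238). Prpf4, the partner of PRPF3 and the least abundant of the 64 genes, was at 4.91, 4.95, 4.64 and 4.71 FPKM in Sham and 4.56, 4.18 and 4.31 in TAB, lower in all TAB libraries (-0.12, limma adjusted p = 0.229). The bridging factor Prpf6 (17.9 ± 0.760 to 18.1 ± 0.797) and the kinase gene Prpf4b (16.3 ± 1.03 to 16.2 ± 0.402) had values of 0.01 and -0.01.

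Of the 12 Snrp genes 1 fell (Snrpn), 0 rose and 11 were not called (8.33% called, beside 20.3% of all tested rows). The Sm core proteins form the ring around snRNAs, and their genes were abundant. Snrpd2 was highest at 87.0, 104, 95.6 and 109 FPKM in Sham and 100.8, 114 and 98.6 in TAB, which overlapped. Snrpd3, Snrpe, Snrpg, Snrpf and Snrpd1 had Sham means of 69.2, 56.3, 53.1, 24.7 and 16.5 FPKM and log2 fold changes of 0.04, 0.11, 0.04, -0.02 and 0.06. Snrpf had the widest interval of the Sm genes (-0.27 to 0.23). The proteins particular to U1, Snrpa and Snrpc, were at 19.4 ± 0.854 and 27.1 ± 2.58 (SD, n = 4, Sham) and 19.8 ± 1.17 and 27.2 ± 1.85 (SD, n = 3, TAB).

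The U2 protein gene Snrpa1 was the closest to the threshold among the genes not called. It was at 11.4, 12.8, 11.7 and 12.6 FPKM in Sham and 9.14, 10.7 and 11 in TAB, so all TAB libraries were lower. The log2 fold change was -0.22 ± 0.07 (SE, interval -0.38 to -0.05, limma adjusted p = 0.0607). It passed under median-of-ratios rescaling (limma adjusted p = 0.0322) and quantile normalization (limma adjusted p = 0.0352), both with -0.26. Without TAB 1 the value was -0.14 (limma adjusted p = 0.229). Its partner in the U2 snRNP, Snrpb2, was at 14.4 ± 1.81 and 14.2 ± 0.756, with a value of -0.01.

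**Figure D5:**
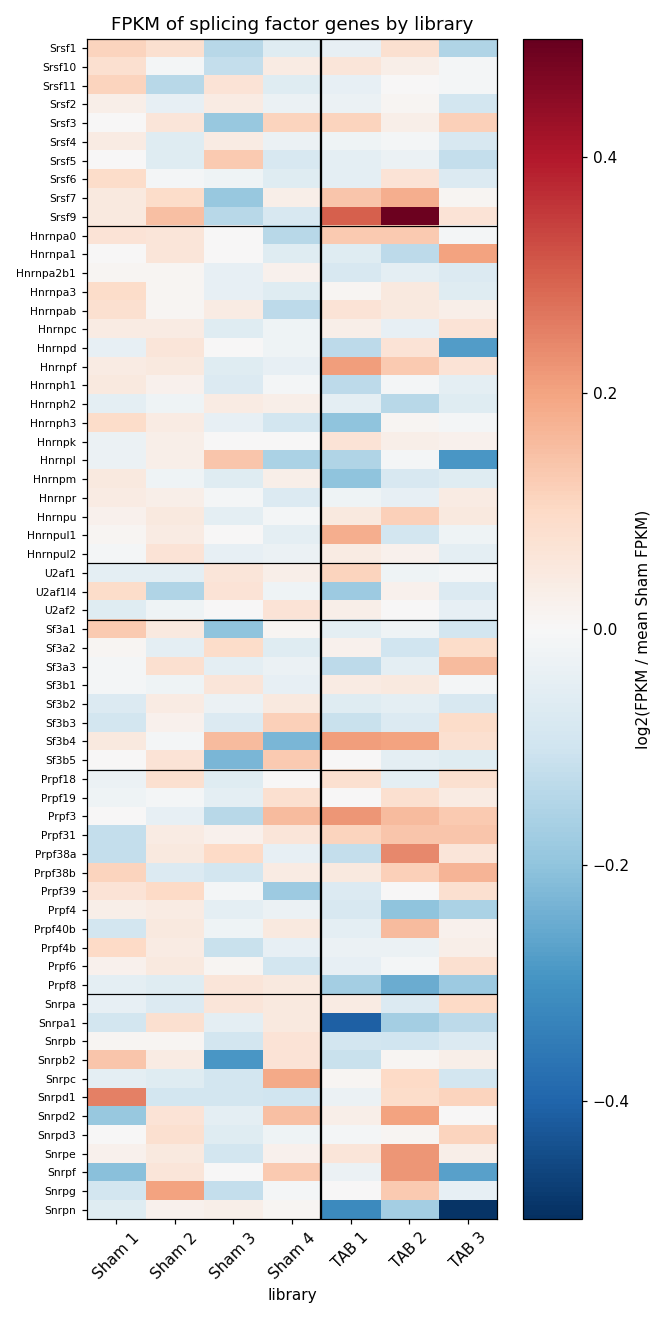
Log2 ratio of FPKM to the gene's Sham mean for 63 tested genes (colour, from -0.5 to 0.5) in the 7 libraries, with genes grouped by subfamily and a line between Sham and TAB. Snrpn is lower across the TAB columns, Srsf9 is higher in TAB 1 and TAB 2, and most rows show no step at the line.

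The summed FPKM of the 65 genes was 2217 to 2287 in Sham and 2215 to 2290 in TAB, which overlapped. As a share of all FPKM it was 0.435% ± 0.00506 (SD, n = 4, Sham) and 0.427% ± 0.00366 (SD, n = 3, TAB). The ranges of this share were 0.4309% to 0.4426% in Sham and 0.4229% to 0.4302% in TAB, so every TAB library was below every Sham library. The spread over all 7 libraries, as a coefficient of variation, was 15.6% for Srsf9, 13.1% for Snrpn and 11.9% for Snrpf. These were the highest among the 64 genes described, and the value for Hnrnpk was 2.22%. This spread includes any difference between the groups.

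Many genes of the splicing machinery, SR genes above all, are known to limit their own output through exons or introns that send the transcript to nonsense-mediated decay. GENCODE M21 annotates at least 1 such decay transcript for 32 of the 65 genes (49.2%), beside 29.1% of 10605 tested genes matched. By subfamily these were 9 of 11 SR, 8 of 18 hnRNP, 3 of 3 U2AF, 1 of 8 SF3, 7 of 13 PRPF and 4 of 12 Snrp genes. A retained-intron transcript is annotated for 72.3% of the 65 and 60.4% of tested genes. The median number of annotated transcripts was 6 for the 65 genes and 5 for tested genes. Neither the decay nor the retained-intron shares were adjusted for this number. The deposited values are 1 number per gene, so a shift between productive and decay isoforms was not analysed here.

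Outside these symbols, 147 tested genes of 9 lists of splicing factors also held few calls. Of them 8 rose and 1 fell (6.12%, beside 20.3% of all tested rows), and the median log2 fold change was 0.028. This balance turned with the scaling, to 5 higher and 6 lower under median-of-ratios rescaling and 4 and 5 under quantile normalization. Of 9 genes for SR kinases and SR protein import 1 rose: Srpk3, a muscle-specific SR protein kinase gene, was at 17.1, 17.4, 17.0 and 17.5 FPKM in Sham and 19.4, 23.2 and 23.2 in TAB. Every TAB library was above every Sham library (log2 fold change 0.32 ± 0.07 SE, limma adjusted p = 0.00679). Of 21 SR-related genes and 12 genes of the SMN complex, which assembles snRNPs, 0 were called. Of 8 LSm genes 1 rose: Lsm3, a subunit of the ring on U6, went from 50.9 ± 5.64 (SD, n = 4) to 64.8 ± 0.870 (SD, n = 3), with limma adjusted p = 0.00840.

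Of 34 Prp19 complex and catalytic-step genes Cwc22 rose (5.27 ± 0.377 to 6.49 ± 0.317, limma adjusted p = 0.0263) and the cyclophilin-type gene Ppil1 fell (24.0 ± 1.19 to 18.8 ± 1.88, limma adjusted p = 0.00660). Of 27 snRNP genes named otherwise Rbm17 (0.22 ± 0.05 SE) and Ppih (0.29 ± 0.09) rose, with limma adjusted p = 0.0121 and 0.0466. Of 16 hnRNP-class genes with other names the cold-inducible Rbm3 rose from 55.1 ± 2.36 to 67.1 ± 2.51 (limma adjusted p = 0.00309). Of 14 exon junction and decay genes the helicase gene Eif4a3 rose (25.7 ± 1.04 to 29.1 ± 0.247, limma adjusted p = 0.0275), and of 10 minor spliceosome genes Zrsr2 rose (3.52 ± 0.161 to 4.39 ± 0.271, limma adjusted p = 0.0277). Lsm3 and Rbm3 were called under all 15 alternatives, Srpk3, Ppil1 and Rbm17 under all except the fit without Sham 2 and TAB 3, Cwc22 under 8, Eif4a3 under 6, Zrsr2 under 5 of 14 and Ppih under 4.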

How the data were processed

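PolyA-enriched, stranded RNA-seq libraries of mouse ventricle, 4 Sham and 3 TAB, were deposited as 1 table of FPKM values by the authors, per the submitters' processing notes, which name the tools TopHat and Cufflinks and the build mm10. Their versions, annotation, strand setting and scaling were not given in the sources used here. Columns were matched to samples by the names quoted in the descriptions. The 11601 rows reaching 1 FPKM in 3 or more libraries were fitted as log2(FPKM + 1) with limma 3.58.1 in R 4.3.3 (eBayes with trend and robust), two-sided, without covariates, with p-values adjusted over these rows by Benjamini and Hochberg's method (threshold 0.05). Fold changes are of FPKM + 1 and understate those of low genes. The fit was run on simulated data with independent noise and no scaling differences between libraries. That run cannot show how calls depend on scaling or on single libraries. Whole counts could not be recovered: 63.7% to 71.4% of low values of genes with 1 transcript of 3000 to 6000 bases lay within 5% of whole fragments at the depth chosen. The genes, lists and alternatives were chosen with earlier results of these data known. Every gene of the rule could be named, with values per library for called genes and the most abundant of each subfamily, and up to 4 called genes of each other list; the further genes shown per library were chosen after their values were seen. Of the list genes 2 were found under an older symbol. The alternatives were another pseudocount (0.1), other filters, other scalings, plain eBayes, the replicate block and leaving out libraries. One gene of the rule is counted in the totals and is not reported here by name or in the figures by gene.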

Additional observations from a re-analysis of the deposited data

Results flagged for a closer look

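In the 4 Sham libraries, the highest or lowest value stood apart from the other 3 by over Dixon's 95% critical share of the whole range for 2 genes and 2 shares, 4 of 69 results examined. Chance alone marks about 5% of such groups, a similar share. Snrpc was at 30.9 FPKM in Sham 4 and at 25.4 to 26.1 in the other Sham libraries. Snrpd1 was at 19.6 FPKM in Sham 1 and at 15.3 to 15.5 in the others. The share of Srsf5 in the summed SR protein FPKM was 37.1% in Sham 3 and 32.8% to 33.1% in the others. The share of Hnrnpa2b1 in the summed hnRNP FPKM was 24.4% in Sham 4 and 23.3% to 23.4% in the others.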

How the results depend on the processing

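Over 15 alternatives, 928 of 959 values of the 64 genes kept their side of the threshold, and the uncalled among them moved by less than the spread between libraries. Of the rest, 8 calls were lost, 8 gained, and 15 uncalled values moved further. No called value changed sign. Among values called in neither fit, 115 had a sign other than that in the main fit, so the direction of small differences was not stable. Between 1 and 5 of the 64 genes were called (1.56% to 7.81%), beside 11.5% to 20.3% of all rows, or 25.1% above a mean FPKM of 5. Quantile normalization called 5 lower (2 Snrp, 2 PRPF, 1 hnRNP, the last Hnrnpa2b1, with Prpf4 and Snrpa1 added) and median-of-ratios rescaling 3, of which 2 Snrp genes; the cause was not tested. These scalings moved the median log2 fold change of all rows from 0.045 to -0.012 and 0.003, and that of the 64 genes to -0.032 and -0.041. Without both Sham 2 and TAB 3, 1 gene was higher (Srsf9, 1 SR protein) and 0 lower (0 PRPF, 0 Snrp). Leaving out single libraries gave 0 to 1 higher and 1 to 2 lower, with 0 to 1 higher SR protein, 0 to 1 higher PRPF and 0 to 1 lower PRPF genes. Of the other splicing genes, median-of-ratios rescaling called 5 higher and 6 lower, quantile normalization 4 and 5, and the fit without both Sham 2 and TAB 3 called 3 and 0, while 4 to 6 rose and 1 to 2 fell with single libraries left out. Whether replicate numbers pair the libraries was not settled. The correlations of same-numbered TAB and Sham libraries were 0.0807, 0.169 and 0.174. Those of the other pairs ran from -0.245 (TAB 2 with Sham 3) to 0.104 (TAB 1 with Sham 3), the latter above the 0.0807 of TAB 1 with Sham 1. With the replicate block 1 gene was higher (Srsf9, the 1 SR protein) and 1 lower, with 0 PRPF genes lower, and 2 other splicing genes fell. Low genes rest on few fragments at this depth.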
